A study of Mus musculus with 4 samples.

Results

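Nuclear receptors are transcription factors, many of which are switched by a small fat-soluble ligand, and 42 mouse genes of this family were followed here in blood stem cells. The list was drawn up by gene symbol, and all 42 were found among the 23450 genes listed for each library. RNA sequencing was done on hematopoietic stem cells (HSCs), which give rise to all blood cells, with 2000 cells from mouse bone marrow sorted for each library. LT-HSC, the long-term stem cells, had 2 libraries and were sorted as CD48-, CD150+, CD34- and CD9 high. ST-HSC, the short-term stem cells, had 2 libraries and were sorted as CD48-, CD150+ and CD9 low, with no CD34 gate in the labels. CD150+ and CD48- are therefore common to both groups. The sources used here do not give the strain, age or sex of the mice, any treatment, or whether animals were pooled. Since separate animals per library are not stated either, p-values reflect only how these libraries vary, and that variation may be technical.

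Most nuclear receptors bind DNA as pairs. Retinoic acid receptors (RARs), thyroid hormone receptors, the vitamin D receptor, the oxysterol receptors (LXRs) and the fatty acid receptors (PPARs) pair with a retinoid X receptor (RXR), while steroid hormone receptors mostly pair with themselves. In mouse bone marrow, retinoic acid and its receptor RAR gamma, the product of Rarg, are known for keeping HSCs in their undifferentiated state, and RAR alpha for granulocyte maturation.

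The DNA that RARs recognise is well known from the gene of one of them. The promoters of 39 of the 42 genes were found in RefSeq (GRCm38.p6), as windows from 250 bases before to 50 bases after a start site, 60 windows in all. They were searched on both strands for the recognition hexamer AGGTCA, for its known versions (AGTTCA, then GGGTCA and also GGTTCA), and for direct repeats of any pair of them with a spacer. A repeat with a spacer of 5 bases, the classical retinoic acid response element, was found in 1 receptor gene, Rarb, and in 32 of all 32851 windows (0.0974%). The hexamers of the known Rarb element, GGTTCA and AGTTCA, were among those searched for. The Rarb match thus followed from that choice and is no result of the search. Repeats with a spacer of 1, 2 or 4 bases were found in 0 of the 60 windows, against 73, 88 and 27 of all windows. A single hexamer is no rare match: 26 of the 60 windows held one, and 43.7% of all windows did. The windows of Rarb and Rarg are shown, Rarb because it holds the repeat and Rarg because it had the largest difference in CPM means of the retinoid receptors. Capitals mark the repeat in Rarb and a hexamer (on the opposite strand) in Rarg. The second Rarg window held no hexamer. All 3 are on the minus strand and are written 5′ to 3′ along the gene.
Rarb, chr14:16575427-16575726: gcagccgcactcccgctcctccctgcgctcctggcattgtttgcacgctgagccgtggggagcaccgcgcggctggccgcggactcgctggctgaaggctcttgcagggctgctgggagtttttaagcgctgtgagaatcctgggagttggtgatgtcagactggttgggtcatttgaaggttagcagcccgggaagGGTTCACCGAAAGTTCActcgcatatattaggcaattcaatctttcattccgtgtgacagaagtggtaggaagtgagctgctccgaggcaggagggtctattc
Rarg, chr15:102257473-102257772: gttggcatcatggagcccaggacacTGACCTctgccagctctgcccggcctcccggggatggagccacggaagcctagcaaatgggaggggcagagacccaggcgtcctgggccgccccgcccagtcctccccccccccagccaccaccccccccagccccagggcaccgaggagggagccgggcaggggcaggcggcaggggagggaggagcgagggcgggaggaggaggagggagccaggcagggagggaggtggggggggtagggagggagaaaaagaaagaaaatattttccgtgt
Rarg, chr15:102246451-102246750: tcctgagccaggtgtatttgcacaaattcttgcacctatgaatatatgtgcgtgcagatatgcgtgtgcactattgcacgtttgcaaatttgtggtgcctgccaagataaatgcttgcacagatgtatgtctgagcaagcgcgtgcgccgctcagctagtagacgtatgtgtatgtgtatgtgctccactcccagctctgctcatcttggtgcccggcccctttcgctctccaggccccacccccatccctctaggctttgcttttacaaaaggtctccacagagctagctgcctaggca
The repeat in Rarb ends 36 bases before the start site. A match describes the letters of a window and says nothing about binding in these cells.

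Libraries held 13063137 and 16142939 recovered reads in LT-HSC and 15029913 and 14822736 in ST-HSC. Values are CPM, reads scaled to a fixed library total, and read numbers were recovered from the deposited values. A count of 0 allows up to 3 reads, which is 0.186 to 0.229 CPM, and the floor and all intervals cover counting error only. The 8 stem cell markers examined, among them Procr and Mecom, had reads in every library. Their CPM summed to 3258 and 3327 in LT-HSC and to 2314 and 2348 in ST-HSC. Cell cycle markers summed to 803 and 830 CPM in LT-HSC and to 1449 and 1892 CPM in ST-HSC over 8 genes. For 5 of these 8 both LT-HSC libraries lay below both ST-HSC libraries, for 0 above, and the rest overlapped. Over all genes tested, 17.5% lay below and 16.2% above. In bulk samples, fewer cells of a type and less RNA per cell cannot be told apart.

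Of the 42 receptor genes, 21 had a read in all 4 libraries, 10 in some and 11 in none. Single libraries had reads for 26 and 25 of them in LT-HSC and for 26 and 25 in ST-HSC. These shares, 59.5% to 61.9%, stand beside 62.0% and 56.9% of all listed genes read in LT-HSC and 56.8% and 56.6% in ST-HSC. Both thyroid hormone receptor genes were read in every library, as were 5 of 6 retinoid receptor genes. Of the 3 estrogen-related receptor genes, Esrra and Esrrb were unread throughout, and Esrrg had 8 and 0 reads in LT-HSC and 9 and 0 in ST-HSC. The other unread genes were Rxrg, Ppara, Nr1h4 (the bile acid receptor FXR), Nr1d1 (REV-ERB alpha), Nr1i2 (the xenobiotic receptor PXR), Nr2e1, Nr2f6, Nr5a1 and Nr0b1. An unread gene may hold transcripts below the floor or reads given to an overlapping gene.

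**Figure D1:**
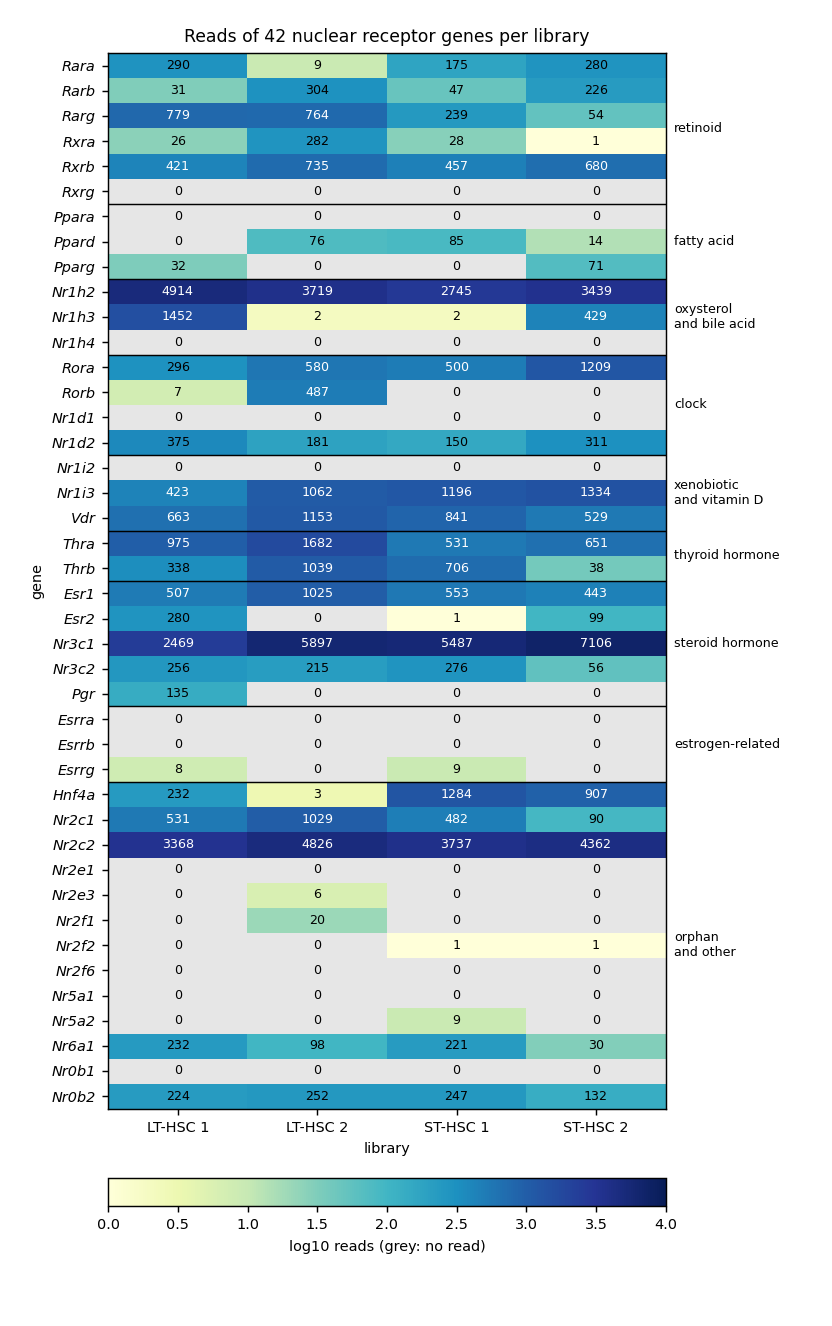
Reads of each of the 42 nuclear receptor genes (rows, by ligand class) in the 4 libraries (columns), coloured by log10 reads, with grey for no read. Nr1h2, Nr3c1 and Nr2c2 have over 2000 reads in every library, and 11 genes have none in any.

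The comparison asked how receptor transcripts in CD9-high, CD34-negative cells differ from those in CD9-low cells. No receptor gene passed the test across all genes. For testing, a gene needed 1 CPM or more in 2 or more libraries, and 24 receptor genes met this. Of these 24, 0 passed limma's test at an adjusted p under 0.05, where 0 of 12569 genes did (0% called). At an unadjusted p under 0.05 there were 3 receptor genes, or 12.5% of the 24, against 814 genes or 6.48% of all tested. These were Rarg and Thra, higher in LT-HSC (2.87% of all genes tested), and Hnf4a, lower (3.60% of all). Which receptor genes fell under that p by limma changed with single libraries left out. Without LT-HSC 1 it was Hnf4a alone, where 808 genes in all did. Without LT-HSC 2 there were 4, Nr1h2, Nr1i3, Nr3c1 and Hnf4a, of 1116 genes in all. Without ST-HSC 1 there were 3, Rarg, Thrb and Nr2c1, of 560, and without ST-HSC 2 there were 0 of 415. Thra was above that p in each of these 4 fits. With no filter, or with a pseudocount of 0.25 CPM, the 2 were Rarg and Thra, of 782 and 801 genes in all. For 5 of the 24, Rarg, Rxra, Thra, Esr1 and Nr2c1, each LT-HSC library exceeded each ST-HSC library, a share of 20.8% against 16.2% of all genes tested. For Nr1i3 and Hnf4a each was lower than each ST-HSC library, 8.33% against 17.5%. A gene that is high in 1 group can pass the filter through that group alone, so these counts describe the 24 and do not set them apart. With 2 libraries against 2, an exact 2-sided permutation test cannot go below 0.333.

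Large gaps between libraries of the same group were common among the receptor genes. Between the LT-HSC libraries, 7 of the 24 differed by more than 4-fold on the CPM + 1 scale (29.2%, against 18.1% of all genes tested), and between the ST-HSC libraries 7 did (29.2%, against 13.7%). In either group this held for 12 of the 24 (50%, against 26.5%). The mean CPM of the receptor genes had a median of 35.0, against 48.1 for all genes tested.

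**Figure D2:**
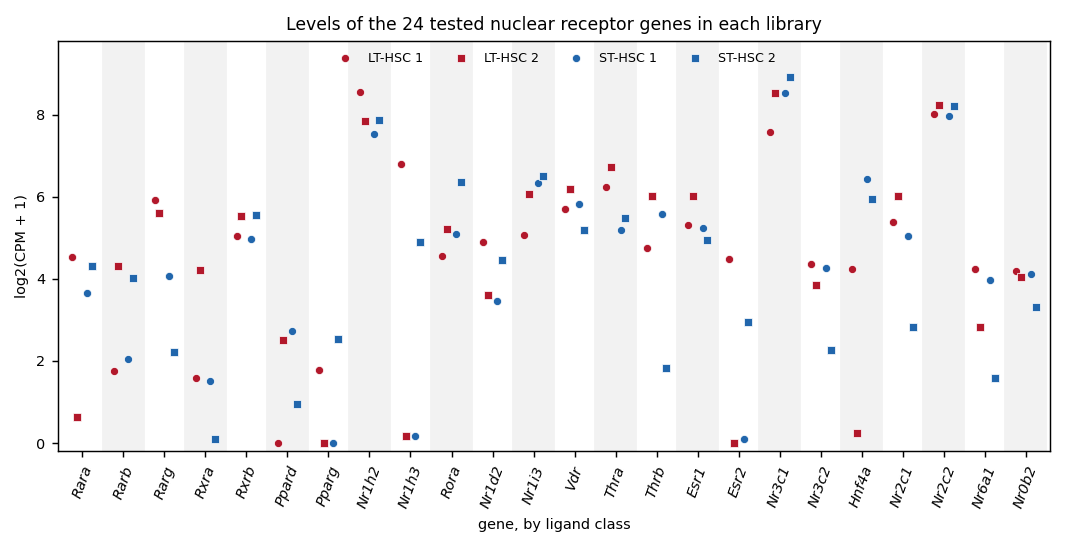
Level of each tested receptor gene in each library, as log2(CPM + 1), with LT-HSC in red and ST-HSC in blue, circles for libraries numbered 1 and squares for those numbered 2. The groups do not overlap for Rarg, Rxra, Thra, Esr1, Nr2c1, Nr1i3 and Hnf4a, while Rara, Nr1h3 and Esr2 are near 0 in some libraries of a group and well read in others.

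Among the retinoid receptors, Rarg stood higher in both LT-HSC libraries. Rarg had 59.6 and 47.3 CPM in LT-HSC, against 15.9 and 3.64 CPM in ST-HSC. The groups did not overlap, and the log2 fold change was 2.61 ± 0.93 (SE, limma adjusted p = 0.759). Leaving out ST-HSC 2 gave 1.68 and leaving out ST-HSC 1 gave 3.54, the extremes over single libraries left out.

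The other RAR genes varied more within a group than between groups. Rara, which encodes RAR alpha, had 22.2 and 0.557 CPM in LT-HSC, with 9 reads behind the low value, against 11.6 and 18.9 CPM in ST-HSC. LT-HSC 2 alone was low, and the log2 fold change of -1.40 ± 1.57 (SE, limma adjusted p = 0.969) turned to 0.55 without it. Rarb, itself a known target of retinoic acid through the repeat shown above, had 2.37 and 18.8 CPM in LT-HSC and 3.13 and 15.2 CPM in ST-HSC. Both libraries numbered 2 were high and both numbered 1 low, and the log2 fold change was -0.0018 ± 1.42 (SE, limma adjusted p = 0.9998). In the GENCODE annotation (GRCm38), 34.1% of the exon bases of Rarb lie on the opposite strand of Top2b exons. Without knowing whether reads were counted by strand, reads of the pair cannot be told apart. Top2b, a topoisomerase gene, had 68.6 and 187 CPM in LT-HSC and 157 and 171 CPM in ST-HSC.

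The make-up of the RAR transcripts can be given within a library, where exon lengths of the 3 genes are alike (4.26 to 5.26 kb). Of all RAR reads, Rarg held 70.8% (95% Wilson interval 68.1 to 73.4) and 70.9% (68.2 to 73.6) in LT-HSC. In ST-HSC it held 51.8% (47.3 to 56.4) and 9.64% (7.47 to 12.4). The Rarg share was thus the same within counting error in the LT-HSC libraries while the rest was mostly Rara in LT-HSC 1 and mostly Rarb in LT-HSC 2. Summed over the 3 genes, RAR transcripts came to 84.1 and 66.6 CPM in LT-HSC and to 30.6 and 37.7 CPM in ST-HSC. Reads under the name Rarb may belong to Top2b, as given above, which would change the shares and the sum and which the intervals do not cover. The sum and the shares were formed after the values were seen.

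The RXRs, the shared partners, were represented mainly by Rxrb. Rxrb had 32.2 and 45.5 CPM in LT-HSC and 30.4 and 45.8 CPM in ST-HSC, nearly the same pair of values in each group, with a log2 fold change of 0.04 ± 0.56 (SE, limma adjusted p = 0.9998). It made up 94.2% and 72.3% of RXR reads in LT-HSC and 94.2% and 99.9% in ST-HSC. Rxra had 1.99 and 17.4 CPM in LT-HSC and 1.86 and 0.0674 CPM in ST-HSC, the last from 1 read. LT-HSC 2 was high, and the other LT-HSC library exceeded ST-HSC 1 by little. Its log2 fold change was 2.09 ± 1.35 (SE, limma adjusted p = 0.866), or 0.77 without LT-HSC 2. Rxrg was unread.

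**Figure D3:**
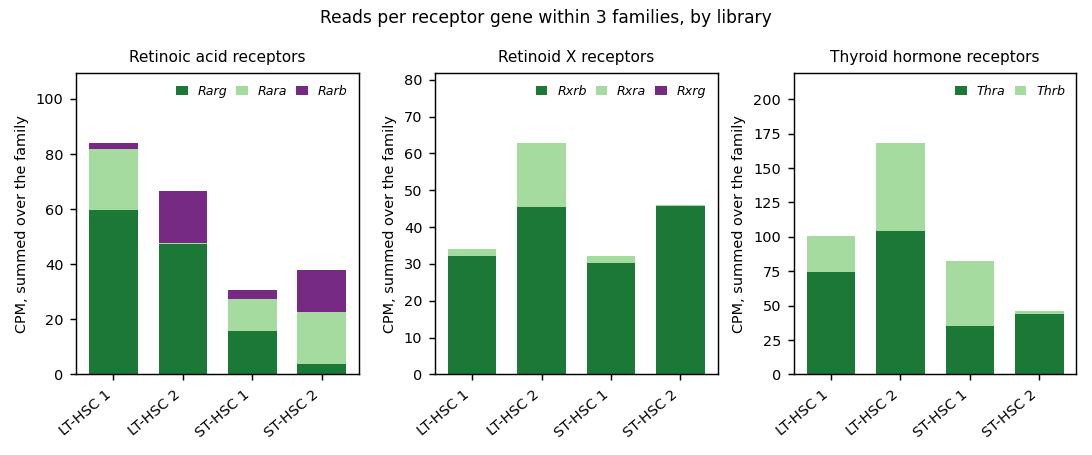
CPM of the genes of 3 receptor families in each library, stacked, with LT-HSC libraries left of ST-HSC libraries and each axis starting at 0. Rarg makes up most of the RAR bar in both LT-HSC libraries, Rxrb most of the RXR bar in all 4, and Thra stands at 74.5 and 104 CPM in LT-HSC and 35.3 and 43.9 CPM in ST-HSC.

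Genes that make, carry and break down retinoic acid were read in part. Of the 24 on the list, 23 were listed, 10 of them without a read in any library, and 10 were tested. None of these 10 passed at an adjusted or an unadjusted p under 0.05 by limma. Of them, 1 lay above and 1 below both ST-HSC libraries, against 16.2% and 17.5% of all genes tested. The median log2 fold change was -0.06, against -0.01 over all genes tested. The smallest p belonged to Rdh10, which encodes an enzyme that oxidises retinol, with 19.6 and 60.3 CPM in LT-HSC and 1.26 and 9.23 CPM in ST-HSC (log2 fold change 2.88 ± 1.22 SE, limma adjusted p = 0.767). Dhrs4, a short-chain dehydrogenase gene, had 27.5 and 15.5 CPM in LT-HSC and 44.7 and 59.2 CPM in ST-HSC (-1.28 ± 0.62 SE, limma adjusted p = 0.810). Cyp26a1, which encodes an enzyme that breaks down retinoic acid, was unread in all 4 libraries. Of the genes on this list, it was the one whose promoter window held a direct repeat with a spacer of 5 bases.

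The thyroid hormone receptor gene Thra was higher in both LT-HSC libraries. Thra, which encodes thyroid hormone receptor alpha, had 74.5 and 104 CPM in LT-HSC and 35.3 and 43.9 CPM in ST-HSC. The groups did not overlap, with a log2 fold change of 1.14 ± 0.43 (SE, limma adjusted p = 0.767) and a range of 0.90 to 1.38 when single libraries were left out. Its exons overlap those of Nr1d1 on the other strand by 263 bases (GENCODE, GRCm38), and Nr1d1 was unread. Thrb had 25.8 and 64.3 CPM in LT-HSC and 46.9 and 2.56 CPM in ST-HSC, so that ST-HSC 2 alone was low. Its log2 fold change of 1.68 ± 1.43 (SE, limma adjusted p = 0.918) was -0.19 without ST-HSC 2.

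Of 8 genes of thyroid hormone and vitamin D metabolism, 5 were unread and 3 tested, and none passed by limma's adjusted p. Slc16a10, which encodes a membrane transporter of thyroid hormone, had no read in LT-HSC and 3.79 and 18.1 CPM in ST-HSC (limma adjusted p = 0.750). ST-HSC was higher in both libraries, by counts that differed between them.

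Vdr, the vitamin D receptor gene, was well read in all libraries with overlapping groups, at 50.7 and 71.4 CPM in LT-HSC and 55.9 and 35.7 CPM in ST-HSC (log2 fold change 0.42 ± 0.49 SE, limma adjusted p = 0.975). Cyp27b1, which encodes the enzyme that activates vitamin D, and Cyp24a1, which encodes the one that degrades it, were unread. Nr1i3, which encodes the xenobiotic receptor CAR, a liver protein in the main, had 32.3 and 65.7 CPM in LT-HSC and 79.5 and 89.9 CPM in ST-HSC. Both LT-HSC libraries were lower, with a log2 fold change of -0.86 ± 0.50 (SE, limma adjusted p = 0.841). The annotation places 74.9% of the exon bases of Nr1i3 on exons of Tomm40l, on the opposite strand. Tomm40l, a mitochondrial import gene, had 0.153 and 11.02 CPM in LT-HSC and 24.5 and 23.4 CPM in ST-HSC, the same order of groups. The values under the name Nr1i3 can therefore not be assigned to either gene with certainty. Nr1i2 was unread.

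The LXR genes, whose proteins sense oxidised cholesterol, differed in how evenly they were read. Nr1h2, which encodes LXR beta, was among the most read receptor genes, at 376 and 230 CPM in LT-HSC and 182 and 232 CPM in ST-HSC. LT-HSC 2 and ST-HSC 2 were level, and the log2 fold change was 0.51 ± 0.32 (SE, limma adjusted p = 0.860). Nr1h3, which encodes LXR alpha, had 111 and 0.124 CPM in LT-HSC and 0.133 and 28.9 CPM in ST-HSC. It was thus read 1452 times in LT-HSC 1 and 2 times in LT-HSC 2, and 2 times in ST-HSC 1 and 429 times in ST-HSC 2. Its log2 fold change of 0.95 ± 2.77 (SE, limma adjusted p = 0.9998) carried no order of the groups. Monocyte-macrophage markers, a cell type in which Nr1h3 is known to be active, summed to 239 and 191 CPM in LT-HSC and 340 and 234 CPM in ST-HSC over 11 listed genes. Cd68 and Vcam1 had the smallest p of this list by limma. Cd68 had 157 and 136 reads in LT-HSC and 1141 and 253 in ST-HSC, and Vcam1 67 and 364 in LT-HSC and 675 and 334 in ST-HSC. Csf1r had 431 and 146 reads in LT-HSC and 272 and 578 in ST-HSC, and Mrc1 0 and 0 in LT-HSC and 54 and 5 in ST-HSC. The part of such cells in the values of Nr1h3 was not tested.

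Of 14 LXR target genes, 10 were tested and none passed at an adjusted or an unadjusted p under 0.05 by limma, with a median log2 fold change of -0.07. Srebf1, a regulator of fatty acid synthesis, had the smallest p, with 72.9 and 38.9 CPM in LT-HSC and 43.3 and 0.944 CPM in ST-HSC (2.55 ± 1.62 SE, limma adjusted p = 0.866). Scd1, a fatty acid desaturase gene, had 3.82 and 6.37 CPM in LT-HSC and 11.6 and 11.4 CPM in ST-HSC.

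The PPARs, which respond to fatty acids, had low levels, and per kilobase of exon, averaged over the 4 libraries, Ppard and Pparg were the lowest of the tested receptor genes. Ppara was unread. Ppard had 0 and 4.70 CPM in LT-HSC and 5.65 and 0.944 CPM in ST-HSC, and Pparg had 2.45 and 0 CPM in LT-HSC and 0 and 4.79 CPM in ST-HSC. Each had an unread library in LT-HSC, and Pparg also in ST-HSC, so no order of the groups could be read. Of 16 PPAR target genes, 12 were tested, with a median of 0.12. None passed at an adjusted or an unadjusted p under 0.05 by limma. Above both ST-HSC libraries lay 4 and below both 2, against 16.2% and 17.5% of all genes tested. Hadha, a fatty acid oxidation gene, had 49.3 and 126 CPM in LT-HSC and 177 and 124 CPM in ST-HSC (-0.90 ± 0.54 SE, limma adjusted p = 0.853). Ehhadh, another gene of that pathway, in peroxisomes, had 0.306 and 0.0619 CPM in LT-HSC and 7.65 and 1.28 CPM in ST-HSC.

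The clock-linked receptors include the RORs, activators of clock genes, and the heme-binding REV-ERBs, repressors that act on the same DNA sites. Rora had 22.6 and 35.9 CPM in LT-HSC and 33.2 and 81.5 CPM in ST-HSC, overlapping between groups, with a log2 fold change of -0.85 ± 0.68 (SE, limma adjusted p = 0.906). Rorb, known mainly from brain and retina, was read in LT-HSC and in no ST-HSC library. It had 0.535 and 30.1 CPM in LT-HSC, so that nearly all its reads came from LT-HSC 2. Against a floor of 3 reads per library it was at least 76.3-fold higher in LT-HSC, but at least 2.67-fold without LT-HSC 2, and it could not be tested under the filter. Nr1d2, which encodes REV-ERB beta, had 28.7 and 11.2 CPM in LT-HSC and 9.97 and 20.96 CPM in ST-HSC (log2 fold change 0.29 ± 0.94 SE, limma adjusted p = 0.9998).

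Of 16 other clock genes, 15 were tested, none passed by limma's adjusted p, and at an unadjusted p under 0.05 there were 1 higher and 1 lower, with a median of 0.29. The pair were the cryptochrome genes, which encode repressors of the clock. Cry2 had 71.8 and 55.9 CPM in LT-HSC and 22.9 and 24.7 CPM in ST-HSC (1.38 ± 0.52 SE), and Cry1 had 1.15 and 0 CPM in LT-HSC and 28.9 and 5.80 CPM in ST-HSC (-3.28 ± 1.24 SE, limma adjusted p = 0.767 for both). The median of the list was -0.29 at its lowest and 0.31 at its highest over the settings tried.

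Steroid hormone receptors were led by the glucocorticoid receptor gene. Nr3c1 had 189 and 365 CPM in LT-HSC and 365 and 479 CPM in ST-HSC. LT-HSC 1 was low, and LT-HSC 2 and ST-HSC 1 were level, giving a log2 fold change of -0.67 ± 0.37 (SE, limma adjusted p = 0.830), or -0.20 without LT-HSC 1. Nr3c2, the mineralocorticoid receptor gene, had 19.6 and 13.3 CPM in LT-HSC and 18.3 and 3.77 CPM in ST-HSC (0.84 ± 1.10 SE, limma adjusted p = 0.986). Glucocorticoid receptor transcripts made up 90.6% and 96.5% of the reads of this pair of genes in LT-HSC and 95.2% and 99.2% in ST-HSC.

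Of 13 glucocorticoid target genes, 12 were listed and 11 tested. None passed by limma's adjusted p, 1 was lower at an unadjusted p under 0.05, and the median was 0.27. The lower one was Zbtb16, the gene of the transcription factor PLZF, with 0 and 0.0619 CPM in LT-HSC and 8.31 and 10.4 CPM in ST-HSC (-3.32 ± 0.97 SE, limma adjusted p = 0.716). Fkbp5, both a target and a chaperone partner of the receptor, had 41.4 and 49.9 CPM in LT-HSC and 114 and 62.7 CPM in ST-HSC (-0.88 ± 0.48 SE, limma adjusted p = 0.827). All 7 chaperone genes of steroid receptors were tested, with a median of -0.01. Of these, 0 passed at an adjusted or an unadjusted p under 0.05 by limma. Fkbp5 and the co-chaperone gene Stip1, 2 of the 7, lay below both ST-HSC libraries, against 17.5% of all genes tested.

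Of the estrogen receptor genes, Esr1 was well read in every library and Esr2 was read unevenly. Esr1, the gene of estrogen receptor alpha, which in mouse is known to promote HSC division, had 38.8 and 63.5 CPM in LT-HSC and 36.7 and 29.9 CPM in ST-HSC. LT-HSC 1 stood above ST-HSC 1 by little, and the log2 fold change was 0.57 ± 0.55 (SE, limma adjusted p = 0.940). Esr2 had 21.4 and 0 CPM in LT-HSC and 0.0665 and 6.67 CPM in ST-HSC. Pgr, the progesterone receptor gene and a classical estrogen target, had 10.3 CPM in LT-HSC 1 and no read in the other libraries. Esr2 and Pgr, like Nr1h3, had their highest value in LT-HSC 1, the library in which most genes had a read (14548, against 13275 to 13341 in the others). Rorb, Rxra and Rarb, also read unevenly, had theirs in LT-HSC 2. A link to the number of genes read was not tested.

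Among receptors without an established hormone, Hnf4a stood lower in both LT-HSC libraries. Hnf4a, a regulator of liver and gut genes, had 17.7 and 0.186 CPM in LT-HSC, the second from 3 reads, against 85.3 and 61.1 CPM in ST-HSC. The groups did not overlap, and the log2 fold change was -3.96 ± 1.49 (SE, limma adjusted p = 0.767), -1.97 without LT-HSC 2 and -5.95 without LT-HSC 1. Marker lists of other cell types went both ways. T and NK cell markers summed to 31.6 and 48.8 CPM in LT-HSC and 141 and 145 CPM in ST-HSC over 8 genes, 4 of 4 tested lying below both ST-HSC libraries, with Cd3d and Cd3e at 0. Nkg7 and Lck carried most of that sum, and Cd3g had 19 and 14 reads in LT-HSC and 0 and 0 in ST-HSC. Erythroid markers summed to 290 and 206 CPM in LT-HSC and 343 and 305 CPM in ST-HSC over 7 genes, and of 6 tested 1 lay above and 3 below both ST-HSC libraries. The one above was Epor, the erythropoietin receptor gene, with 50.8 and 26.6 CPM in LT-HSC and 7.38 and 21.1 CPM in ST-HSC. Among those below, Klf1, an erythroid transcription factor gene, had 0.306 and 0.124 CPM in LT-HSC and 27.4 and 9.43 CPM in ST-HSC. Neutrophil markers summed to 52.4 and 51.7 CPM in LT-HSC and 313 and 55.9 CPM in ST-HSC, and monocyte-macrophage markers to 239 and 191 CPM in LT-HSC and 340 and 234 CPM in ST-HSC. Megakaryocyte-platelet markers were higher in sum, at 400 and 459 CPM in LT-HSC and 301 and 202 CPM in ST-HSC. Of 5 tested, however, 1 lay above and 3 below both ST-HSC libraries. Vwf, the one above, had 304 and 380 CPM in LT-HSC and 45.3 and 9.17 CPM in ST-HSC. Itga2b, among those below, had 2.45 and 5.01 CPM in LT-HSC and 152 and 105 CPM in ST-HSC. Over all genes tested, 16.2% lay above and 17.5% below both ST-HSC libraries. The sums overlapped for monocyte-macrophage markers, and also for B cell markers, 219 and 130 CPM in LT-HSC and 145 and 105 CPM in ST-HSC, and for stromal and endothelial markers, 187 and 96.1 CPM in LT-HSC and 72.3 and 142 CPM in ST-HSC. The part of these cells, and of the cell cycle genes given above, in the values of Hnf4a was not tested.

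The testicular receptor genes Nr2c1 and Nr2c2, whose products form a complex known to repress embryonic globin genes in mouse red cell precursors, differed in steadiness. Nr2c2 had 258 and 299 CPM in LT-HSC and 248 and 294 CPM in ST-HSC, with a log2 fold change of 0.04 ± 0.22 (SE, limma adjusted p = 0.9998). Its exons share 4590 bases with those of Mrps25 on the other strand, 30.7% of their length, and Mrps25 had 75.2 and 59.5 CPM in LT-HSC and 73.7 and 55.2 CPM in ST-HSC. Nr2c1 had 40.6 and 63.7 CPM in LT-HSC and 32.0 and 6.07 CPM in ST-HSC. The groups did not overlap, with a log2 fold change of 1.76 ± 0.96 (SE, limma adjusted p = 0.828), or 0.65 without ST-HSC 2.

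Nr0b2, which encodes SHP, a receptor without a DNA-binding domain that represses others, had 17.1 and 15.6 CPM in LT-HSC and 16.4 and 8.90 CPM in ST-HSC. Nr6a1, the germ cell nuclear factor gene, had 17.7 and 6.06 CPM in LT-HSC and 14.7 and 2.02 CPM in ST-HSC. Both overlapped between groups, with log2 fold changes of 0.40 ± 0.88 and 0.74 ± 1.31 (SE, limma adjusted p = 0.9998 for both). Of the remaining genes, Nr2f1 had 0 and 1.24 CPM in LT-HSC and none in ST-HSC. Nr2e3 had 0 and 6 reads in LT-HSC and none in ST-HSC, Nr2f2 none in LT-HSC and 1 and 1 in ST-HSC, and Nr5a2 none in LT-HSC and 9 and 0 in ST-HSC. Nr2f6, unread throughout, shares 54.4% of its exon bases with Ocel1 on the opposite strand, which had 95.7 and 69.0 CPM in LT-HSC and 12.0 and 44.8 CPM in ST-HSC.

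**Figure D4:**
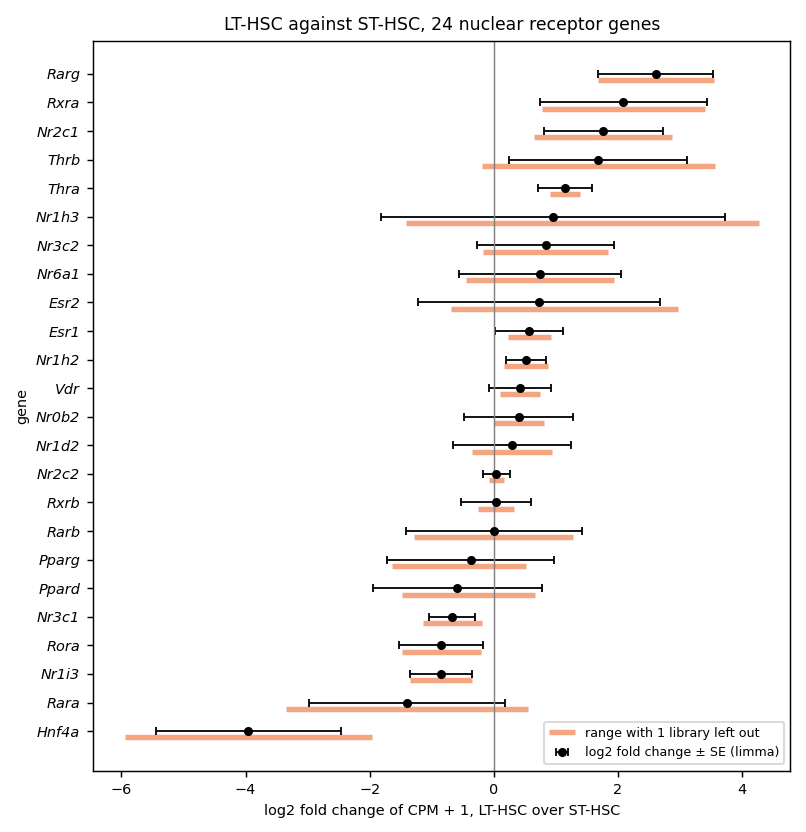
Log2 fold change of CPM + 1, LT-HSC over ST-HSC, of the 24 tested receptor genes (points) with its standard error from limma (black bars), and the range of the same value when each library was left out in turn (orange bars, for libraries whose removal left the gene above the filter). The range stays on 1 side of 0 for 11 genes, among them Rarg, Thra, Nr1h2 and Hnf4a.

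Levels of different receptor genes were set side by side per kilobase of exon, from the GENCODE annotation, which may differ from the gene models used by the authors. Averaged over the 4 libraries, Nr1h2 came first at 76.0 CPM per kb, with 112 and 68.6 in LT-HSC and 54.4 and 69.1 in ST-HSC. Nr3c1 followed at 45.5 CPM per kb, with 24.6 and 47.5 in LT-HSC and 47.5 and 62.3 in ST-HSC, so the libraries of these neighbours overlapped. Nr2c2 was next at 18.4 CPM per kb, with all libraries between 16.6 and 20.0, below every library of Nr1h2 and Nr3c1. Lengths joined the exons of all annotated isoforms, 14.9 kb for Nr2c2, 3.35 kb for Nr1h2 and 7.68 kb for Nr3c1. The place of Nr2c2 rests on these lengths, since in CPM without them it overlapped both. Nr1i3, Thra and Nr1h3 had averages from 13.9 to 15.2 CPM per kb and overlapped each other. The Nr1i3 value may hold reads of Tomm40l, as given above. Rxrb stood at 9.68 and Rarg at 7.41 CPM per kb, and the lowest of the 24 were Pparg at 0.612 and Ppard at 0.376.

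Coactivators and corepressors, the proteins through which receptors switch genes on or off, were read throughout. All 22 were tested, none passed by limma's adjusted p, and the median was -0.24. Above both ST-HSC libraries lay 1 and below both 5, against 16.2% and 17.5% of all genes tested. At an unadjusted p under 0.05 by limma, 2 were lower, against 3.60% of all genes tested. The lower ones were Ncoa6, a coactivator gene, with 24.2 and 45.6 CPM in LT-HSC and 98.8 and 115 CPM in ST-HSC (-1.65 ± 0.49 SE, limma adjusted p = 0.716), and Ppargc1b. Ppargc1b, which encodes a coactivator of mitochondrial genes, had 0.306 and 1.79 CPM in LT-HSC and 12.1 and 22.8 CPM in ST-HSC (-3.21 ± 1.09 SE, limma adjusted p = 0.750). The estrogen-related receptors, among its known partners, were unread or had at most 9 reads, as given above. The median of the list ranged from -0.24 to 0.12 over the settings tried.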

How the data were processed

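Per the labels' protocols, SMARTer cDNA was made from 2000 sorted cells per library and Illumina libraries were sequenced. TopHat and mm9 are named in the submitters' processing notes. The sources used here do not give the read counter, annotation, strand setting or filters. The authors deposited log2 values, 1 file per library, whose low values step by whole reads scaled to CPM. They were taken as log2 of reads plus 1. If unread genes had instead been raised to 1 read, each read gene would hold 1 read more and an unread gene could hold 1. Up to 100 reads, 100% of values were whole to within 0.1 read, unread genes included. The test planned for counts gave way to that planned for normalized values. Log2(CPM + 1) was tested, for genes reaching 1 CPM in 2 or more libraries, with limma 3.58.1 (trend, robust, statmod 1.5.0) in R 4.3.3, with Benjamini-Hochberg adjustment over all 12569 genes and a threshold of 0.05, after a test on simulated data. The scatter between simulated libraries was set, not taken from these data, so the simulation does not give the power here. Positive log2 fold changes mean higher in LT-HSC, and they understate changes of low genes. Means of CPM per kb used GENCODE M21 exons (GRCm38), another build than the authors', so no gene coordinates of the files are given. All 42 receptor genes are described, and of each other list the genes at an unadjusted p under 0.05 or the 2 with the smallest p, plus Cyp26a1, Cyp27b1, Cyp24a1, Csf1r, Mrc1, other cell type markers and genes overlapping a receptor gene, chosen after their values were seen. The members and lists were chosen with earlier results of these data known. The libraries of a group differed far beyond sampling noise (chi-square per degree of freedom 183 in LT-HSC and 144 in ST-HSC). Some results are not reported here.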

Additional observations from a re-analysis of the deposited data

How the results depend on the processing

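No receptor gene and no other gene passed limma's adjusted p under any of the 11 alternatives (TMM or median-of-ratios factors, no filter or 5 CPM, a pseudocount of 0.25 CPM, limma-voom, the replicate block, and each library left out). The number of receptor genes at an unadjusted p under 0.05 was 3 of 814 genes, and 0 of 415 without ST-HSC 2, 3 of 560 without ST-HSC 1, 1 of 808 without LT-HSC 1 and 4 of 1116 without LT-HSC 2, and the genes changed as given above. With the replicate number as a block, 0 genes passed and 878 had an unadjusted p under 0.05, among them Rarg, Hnf4a and Nr3c1 (0.0347, against 0.131 without the block), while Thra had 0.0584, against 0.0457. Deviations of same-numbered libraries had a Pearson correlation of 0.052 across genes. That value cannot show whether such libraries share animals, a sort or a batch, and the labels give only the number. Receptor genes above both ST-HSC libraries numbered 5, or 9 to 13 with single libraries left out, and those below both 2, or 3 to 6. Over all 12569 genes tested, the shares were 16.2% above and 17.5% below with all libraries, and 28.9% to 37.5% above and 32.0% to 36.8% below with single libraries left out, while the receptor genes' shares were 37.5% to 54.2% above and 12.5% to 25% below. The number read with at least 3 reads or at least 1 CPM stayed within 1.5 times. Of the 24 fold changes, 11 kept their direction with each library left out. The other 13 turned, over ranges of -3.35 to 0.55 for Rara, -1.28 to 1.28 for Rarb, -0.25 to 0.32 for Rxrb, -1.48 to 0.67 for Ppard, -1.64 to 0.52 for Pparg, -1.41 to 4.27 for Nr1h3, -0.35 to 0.93 for Nr1d2, -0.19 to 3.556 for Thrb, -0.70 to 2.97 for Esr2, -0.17 to 1.85 for Nr3c2, -0.084 to 0.16 for Nr2c2, -0.45 to 1.93 for Nr6a1 and -0.0063 to 0.81 for Nr0b2. The median of each of the 8 other lists changed sign under at least 1 setting. Rarb also turned to 0.022 with TMM, 0.019 with median-of-ratios factors and 0.10 with limma-voom, and Esr2 to -0.27 with limma-voom; the cause was not tested. A lone library left in a group is assumed to vary like the other group. Leaving out libraries for the strict order, over receptor genes and all genes, the fold bound of Rorb and the settings for list medians were added after seeing the data.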
